A study of Arabidopsis thaliana with 163 samples.

Results

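The subject of this report is the binding of MYC2 to DNA in *Arabidopsis thaliana* seedlings after 2 h of jasmonic acid (JA). Its members are all 3464 nuclear peaks of a list in which tagged MYC2 in JA-treated seedlings was set against the same line without JA. Such a list holds sites where the signal was higher after JA. A site bound equally with and without JA would not enter it. The processed lists of the series that were used or counted here hold 132060 regions in all. The study developed PHILO ChIP-seq, a plate-based chromatin immunoprecipitation protocol that needs little tissue, and comprises 163 samples in 56 groups. The 2 groups behind the MYC2 list are 2hJA, with 2 libraries of seedlings exposed to gaseous methyl jasmonate for 2 h, and ctrl, with 2 libraries of untreated seedlings. All of these seedlings were 10 days old and were processed whole, so signals of different organs are averaged. By the study's methods they carried *MYC2:MYC2-FLAG*, a FLAG-tagged MYC2 under the promoter of *MYC2*, in the *myc2* mutant of the Col-0 background, and an antibody against FLAG was used. The libraries were merged before the peaks were called, so no value below has a replicate error, and the file itself does not name its control side. Reads of the *MYC2* transgene and of the resident *MYC2* locus cannot be told apart.

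MYC2 is a basic helix-loop-helix (bHLH) transcription factor that activates much of the JA response. Without JA it is held in check by JAZ proteins, which bring in the adaptor NINJA and the corepressor TPL. When bioactive JA-Ile joins the F-box protein COI1 to a JAZ protein, the JAZ protein is degraded and MYC2 is released. MYC proteins recognise the G-box, the palindrome CACGTG, and close variants of it.

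The bases around a few summits show the kinds of site that the list holds. A summit is the position within a peak that the peak caller reports, and the fold and fragment numbers of a peak are those at this position. Each run below is 61 bases long on the + strand of TAIR10, with the summit in its centre. Capitals mark CACGTG (the G-box), CACGTT or its complement AACGTG (here the T variant), and CACATG or its complement CATGTG (here the A variant), wherever they occur. The first group shows summits with a G-box, at *JAZ8* (chr1:10596296-10596356), *JAZ3* (chr3:6119534-6119594), *JAZ13* (chr3:7880460-7880520), *IAR3* (chr1:19198743-19198803) and *BCAT4* (chr3:6849959-6850019). The G-box of *JAZ3* and that of *IAR3* stand beside a T variant, and the *JAZ13* run holds a pair of G-boxes.
JAZ8: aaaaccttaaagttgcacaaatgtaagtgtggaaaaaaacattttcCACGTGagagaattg
JAZ3: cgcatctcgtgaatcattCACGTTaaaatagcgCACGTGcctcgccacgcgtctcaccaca
JAZ13: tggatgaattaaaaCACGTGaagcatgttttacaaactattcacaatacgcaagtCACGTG
IAR3: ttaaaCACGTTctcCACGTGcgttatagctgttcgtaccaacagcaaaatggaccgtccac
BCAT4: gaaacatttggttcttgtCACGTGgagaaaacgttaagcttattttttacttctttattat

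The next group has a T variant and no G-box, and the *MBP2* run ends on an A variant as well. It is shown because this variant was more frequent among peaks of high fold, as described below. The runs lie at *JAZ6* (chr1:27276660-27276720), *LOX4* (chr1:27308398-27308458), *SOT17* (chr1:6398447-6398507), *MYB76* (chr5:2449484-2449544), *UGT74B1* (chr1:8527126-8527186) and *MBP2* (chr1:19349087-19349147).
JAZ6: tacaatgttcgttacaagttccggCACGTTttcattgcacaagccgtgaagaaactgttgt
LOX4: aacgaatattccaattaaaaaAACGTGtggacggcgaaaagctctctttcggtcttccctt
SOT17: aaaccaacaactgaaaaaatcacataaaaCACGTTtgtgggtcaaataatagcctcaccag
MYB76: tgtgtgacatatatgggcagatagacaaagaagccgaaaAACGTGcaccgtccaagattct
UGT74B1: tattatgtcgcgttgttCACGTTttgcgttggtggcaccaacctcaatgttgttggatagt
MBP2: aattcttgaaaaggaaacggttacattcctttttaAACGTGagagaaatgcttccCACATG

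The last group has the A variant alone at *MYC2* (chr1:11801746-11801806), *CLH1* (chr1:6805099-6805159) and *ASA1* (chr5:1723436-1723496), and none of these hexamers at *JAZ1* (chr1:6620982-6621042) and just past the end of *GID1A* (chr3:1432846-1432906). A second *JAZ1* summit, at +195 bp, had a T variant. The pair without a match is shown because summits of this kind are also found at core JA genes and among the highest folds.
MYC2: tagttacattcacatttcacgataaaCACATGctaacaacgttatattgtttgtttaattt
CLH1: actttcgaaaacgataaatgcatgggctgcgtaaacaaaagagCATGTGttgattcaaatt
ASA1: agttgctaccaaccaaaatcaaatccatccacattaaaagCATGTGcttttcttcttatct
JAZ1: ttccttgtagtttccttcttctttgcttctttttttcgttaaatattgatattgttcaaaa
GID1A: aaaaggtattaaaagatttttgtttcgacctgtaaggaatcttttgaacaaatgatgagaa

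The 3464 peaks were spread over the 5 chromosomes at 27 to 31 per Mb. Their median width was 321 bp, with a range of 233 to 5437 bp. From the deposited fold and p-value of each peak, the number of fragments over its summit was recovered as a whole number for all 3464 peaks. Summits held between 23 and 434 fragments after JA, with a median of 77.0. The control background, which is the number of control fragments over the summit or a larger average of the surrounding region, lay between 6.37 and 210, with a median of 23.0. It was a whole number of fragments at 3051 summits (88.1%) and a regional average at the rest. Fragments after JA were multiplied by 0.7956 to match the total of the control before the fold was taken. The fold had a median of 2.59 and a range of 1.45 to 11.1. Intervals given below for single peaks are 95% exact intervals for the ratio of fragments, scaled in the same way but without the pseudocount of 1 that the fold contains. They cover counting error only. The lowest fold among called peaks was 1.95 in the quintile with the least control background and 1.45 in the quintile with the most, so a peak with few control fragments needed a higher fold to enter the list.

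**Figure D1:**
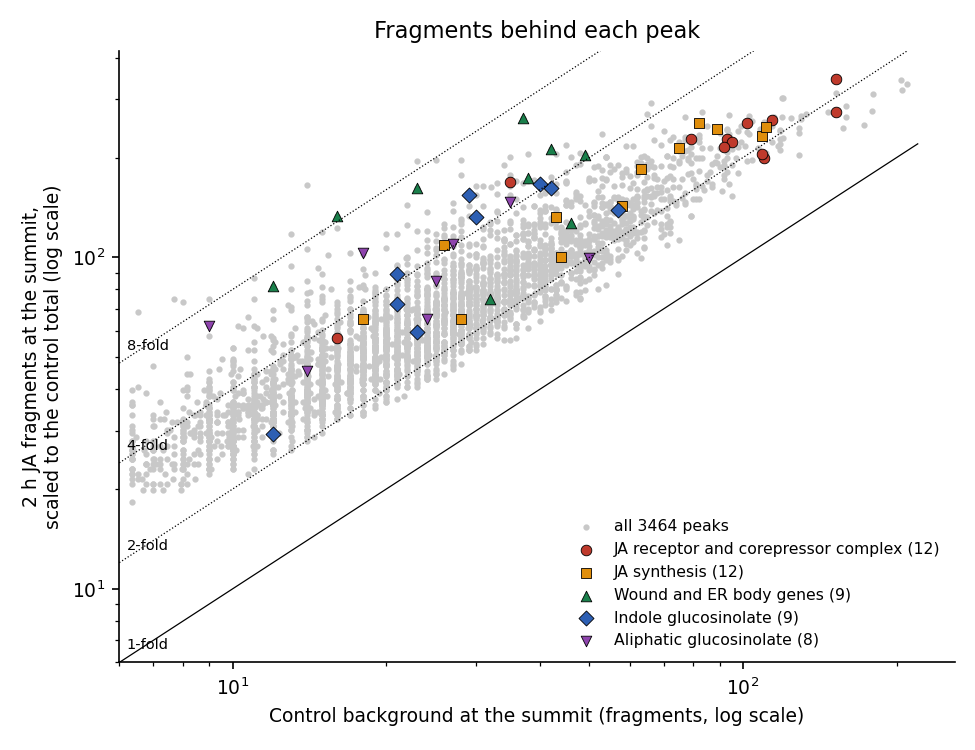
Fragments over the summit after 2 h JA, scaled to the control total (vertical, log scale), against the control background in fragments (horizontal, log scale) for all 3464 peaks in grey, with the strongest summit of each target gene of 5 lists in colour; the diagonals mark equal fragments and 2-, 4- and 8-fold. Most JA receptor and corepressor genes lie at the upper right, with medians of 283 JA fragments before scaling and 98.5 in control, and the wound and ER body genes lie nearer the 8-fold line, with medians of 204 and 37.0.

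The 10 peaks of highest fold combined few control fragments with moderate numbers after JA. The highest fold, 11.1, belonged to a summit with 208 fragments after JA and 14 in control (ratio 11.8, interval 6.89 to 22.0). This summit at chr3:17186173 fell in a 3′ untranslated exon, within both the clock gene *PCL1* (also *LUX*) and the overlapping gene AT3G46650, so it cannot be assigned to one of them. Next came an intron of *CLT3* (fold 9.23, 86 fragments against a background of 6.52), a site just downstream of *GID1A*, a gibberellin receptor gene (8.72, 94 against 7.69), and a site at −2752 bp from the start of *PAL1*, which starts the phenylpropanoid pathway (8.48, 148 against 13). AT5G44720, which encodes a molybdenum cofactor sulfurase family protein, had a summit at −641 bp from its start with a fold of 8.24 (92 against 8). This position lies within the neighbouring gene AT5G44710. The remaining 5 lay at −1891 bp from AT3G28270 (fold 8.20, 246 against 23), in the 5′ untranslated exon of *TSA1* (AT1G52410) (7.87, 167 against 16), at −376 bp from AT1G54020 (7.60, 247 against 25), in a coding exon of *SOT16* (7.58, 94 against 9) and downstream of *AOS* (7.52, 150 against 15). None of these 10 summits carried a G-box within 50 bp. The A variant was present at 4 of them, the T variant at 3, and none of the hexamers at 3.

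The peaks with the most fragments after JA were different ones, picked out after their values were seen. *JAZ9* (*TIFY7*) had 434 fragments after JA and 152 in control, *MYC2* itself had 430 and 204, and AT3G59340 had 418 and 210. Their folds were 2.26, 1.67 and 1.58. If each position and strand is counted once, a summit can hold no more than 466 fragments, a number that no peak passed, and 162 peaks held more than 233. Duplicate handling is not given in the sources used here, and its part in the folds of these peaks was not tested.

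MYC2 summits were concentrated at transcription starts. Of 3464 summits, 1531 (44.2%, 95% Wilson interval 42.6 to 45.9) lay 1 to 1000 bp upstream of the start of a protein-coding gene, a class that takes up 21.3% of the nuclear bases. This class took precedence, so a base within that reach was counted in it even where it lay inside another gene. The other classes, for summits and bases alike, hold only what was left. A further 342 (9.87%, 8.92 to 10.9) lay in 5′ untranslated exons, which in this sense hold 3.72% of bases. Coding exons outside the upstream class were nearly free of summits, with 86 (2.48%, 2.01 to 3.06) against 24.9% of bases. Introns held 7.07% of summits and 14.5% of bases. The 1000 bp downstream of genes held 12.1% of summits (11 to 13.2) and 5.77% of bases, 3′ untranslated exons held 4.30% and 3.69%, and other intergenic sequence held 18.0% and 16.8%.

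In bins of 100 bp, the share of summits was highest between 100 bp upstream of a start and the start itself. That bin held 10.5% of summits and 2.24% of bases, a ratio of 4.67. The bin upstream of it had a ratio of 3.73 and the first 100 bp of transcribed sequence a ratio of 2.94. Of all summits, 64.1% (62.5 to 65.7) lay upstream of their nearest start, 58.3% within 1000 bp of it, and 8.49% more than 3 kb away. The matching shares of bases were not set beside these values, so they do not measure an excess. Farther from the start the bins showed less, with a ratio of 1.57 between 1000 and 900 bp upstream. Between 900 and 1000 bp downstream of the start it was 0.519. The median fold differed little among the position classes, from 2.42 in non-coding genes and pseudogenes to 2.84 in coding exons. Coding exon summits had fewer fragments, with medians of 55.5 after JA and 14.0 in control, against 82 and 25 upstream of starts.

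**Figure D2:**
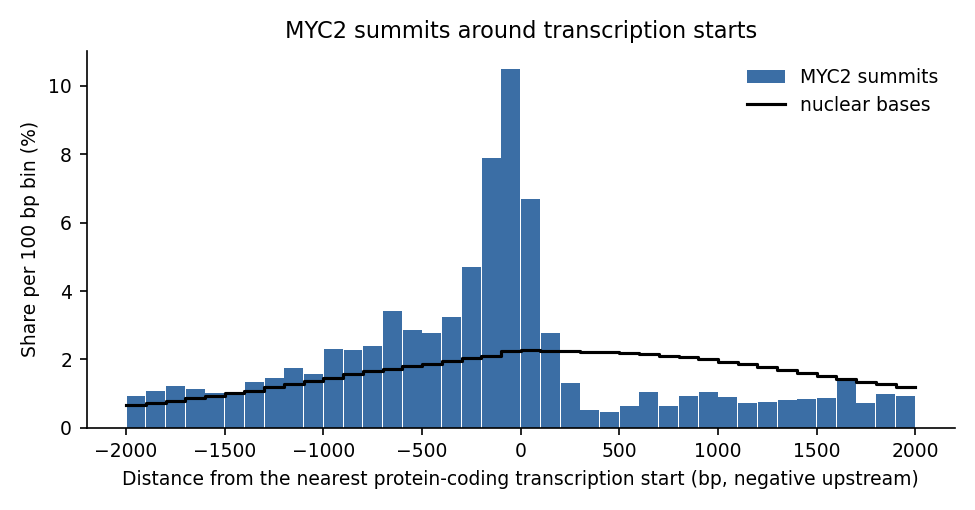
Share of the 3464 MYC2 summits (bars) and of nuclear bases (line), in %, per 100 bp bin of distance from the nearest protein-coding transcription start (horizontal, bp, negative upstream). The bars peak at 10.5% in the last 100 bp before the start and fall below the line from 200 bp inside genes.

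A protein-coding gene was called a target where a summit lay between 1000 bp upstream and 200 bp downstream of its start. This held for 2004 of 27444 genes, a background share of 7.30% against which the lists below are read. A gene that is no target had no called rise near its start, which does not show that MYC2 was absent. The targets drew on 1808 summits (52.2% of all), of which 269 served at least 2 genes. In 260 cases a summit was shared by a pair of genes on opposite strands, so the list does not say which gene of such a pair belongs to the binding. With the whole gene body included, 2490 genes (9.07%) had a summit.

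Genes with several separate summits were uncommon. Near their start, 1929 targets had 1 summit, 75 (0.273% of all genes) had 2, and none of the 2004 had 3. The 2 summits of a gene were 702 bp apart in the median (quartiles 584 and 804 bp), and the closest pair was 376 bp apart. Peaks in this list have 1 summit each, so binding spread over a wide peak was counted once.

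Among the 75 genes, counting summits near the start only, AT5G44720 had the highest summed fold. Its upstream summit at −641 bp (92 fragments after JA, 8 in control) had a T variant 3 bp from the summit, while the second, 13 bp inside the gene (111 and 35, fold 2.48), had a G-box. The upstream summit lay within the neighbouring gene AT5G44710, so it cannot be assigned to AT5G44720 with certainty. *NATA1*, an acetyltransferase gene of ornithine metabolism, had folds of 6.78 at −634 bp (118 and 13) and 3.66 at −81 bp (38 against a background of 7.53), each with a T variant. AT1G74060, annotated as a ribosomal protein L6 family gene, followed with 6.30 at −277 bp and 3.53 at −996 bp. Both of these summits lay within the neighbouring gene AT1G74070. The S-locus lectin kinase gene AT1G61610 had 5.47 at −663 bp and 4.24 at −92 bp. *GSTF9*, a glutathione S-transferase gene, had 6.28 at −785 bp and 2.70 at +81 bp. *ADC2*, an arginine decarboxylase gene of polyamine synthesis, had 5.18 at −305 bp and 3.08 at −949 bp. AT5G28237 had 5.65 at −138 bp and 2.59 at −713 bp. *IGMT5*, a methyltransferase gene of indole glucosinolates, had 4.1 at −136 bp and 3.74 at −895 bp, and AT1G53885 had 4.58 at −770 bp and 2.68 at +119 bp. *MBP1*, a myrosinase-binding protein gene, had 4.45 at −920 bp (217 and 38) and 2.78 at −70 bp (28 against a background of 7.39). In 6 of these 10 genes the strongest summit was the one farther from the start.

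Counting on to the gene end, 39 genes had at least 3 summits. AT4G21910, a MATE efflux gene, had 4 with folds of 4.63, 2.22, 2.86 and 3.53, at −567, +130, +1567 and +3442 bp. AT1G54010, a GDSL lipase gene, also had 4, with folds between 2.39 and 3.74 from −174 to +2193 bp. The others with 4 were *TLL1*, *HSC70-1* and AT1G61890.

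Targets among JA genes were frequent. Of 50 genes in the lists for the receptor and corepressors, the MYC activators and JAM repressors, JA synthesis and JA turnover, 32 were targets (64.0%, 50.1 to 75.9), beside 7.30% of all genes. The lists were drawn up with earlier results of these data known, so these counts describe the lists and test nothing.

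In the receptor and corepressor list, 12 of 19 genes were targets (63.2%, 41.0 to 80.9), among them 10 *JAZ* genes, *NINJA* and *TPL*. *JAZ8*, which encodes a JAZ protein that lacks the usual degron for COI1, had the highest fold, 4.74, with 213 fragments after JA and 35 in control at −26 bp (ratio 4.84, 3.37 to 7.14). *TPL* followed with a fold of 3.43 from far fewer fragments, 72 and 16. *JAZ10* had 286 after JA and 79 in control (2.86), *JAZ13* (AT3G22275) 319 and 102 (2.47), *JAZ1* 287 and 93 (2.44) and *JAZ3* 280 and 95 (2.33). The other *JAZ* targets were *JAZ2*, *JAZ5*, *JAZ6*, *JAZ7* and *JAZ9*, with folds from 1.80 to 2.32. With the exception of *TPL*, these targets had 213 to 434 fragments after JA and 35 to 152 in control. The median of the list was 283 after JA and 98.5 in control, against 82.5 and 25 over all targets, while the median fold of 2.33 lay below the 2.59 of all targets. *COI1*, *JAZ4*, *JAZ11*, *JAZ12*, *MED25*, *HAC1* and *HDA6* were no targets and had no summit up to the gene end either. The first of these is the receptor gene, and the last 3 encode a mediator subunit, a histone acetyltransferase and a histone deacetylase.

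In the list of bHLH activators and repressors, 3 of 7 genes were targets. *MYC2* had 430 fragments after JA and 204 in control at −369 bp, a fold of 1.67 (ratio 1.68, 1.42 to 1.99). Further summits lay at +387 bp (316 and 173, fold 1.45) and in a coding exon at +1976 bp (97 and 47, fold 1.63). *JAM1* and *JAM2*, which encode repressors that compete with MYC2 for its sites, had folds of 1.90 (309 and 129) and 3.06 (114 and 29). The close relatives *MYC3* and *MYC4*, *NIG1* and *JAM3* had no summit.

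JA synthesis had 12 targets among 15 genes (80.0%, 54.8 to 93.0). The lipoxygenase genes that start the pathway had the highest folds, 4.07 at *LOX4* (137 and 26), 3.49 at *LOX6* (82 and 18), 3.08 at *LOX2* (320 and 82) and 3.02 at *LOX3* (166 and 43). The allene oxide cyclase genes *AOC2* and *AOC1* had 2.91 (233 and 63) and 2.83 (269 and 75). The other 6 targets, *ACX1*, *AOC3*, *AOC4*, *AOS*, *OPCL1* and *OPR3*, had folds between 2.13 and 2.73. The *ACX1* summit, at −958 bp, lay within the neighbouring gene AT4G16765, so it cannot be assigned to *ACX1* with certainty. *AOC1*, *AOC2* and *AOC3* are neighbouring copies that could share reads, and how reads with several matches were placed is not given in the sources used here. *AOS*, which encodes allene oxide synthase, had 293 fragments after JA and 109 in control at its start (2.13). Its coding exon held a stronger fold of 6.0 at +872 bp (117 against a background of 14.7), beside the 7.52 downstream of the gene. *LOX3* likewise had its highest fold inside the gene, 3.52 in an intron at +2108 bp (273 and 61) at a G-box. *DAD1*, *JAR1* and the thiolase gene *KAT2* (*PKT3*) were no targets.

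Among the 9 genes of JA turnover and transport, 5 were targets, and their strongest summits near the start had a median of 50 fragments after JA and 15.3 in control. *CYP94B1* and *CYP94B3*, which encode hydroxylases of JA-Ile, had folds of 2.90 (50 against a background of 13.0) and 2.84 (63 and 17), the transporter gene *GTR1* 2.55 (50 and 15) and *ILL6* 2.4 (48 against a background of 15.3). A stronger summit of *ILL6* lay in the 5′ untranslated exon at +263 bp (192 and 48, fold 3.14), outside the limit of 200 bp. *IAR3*, an amidohydrolase gene, stood apart with 392 and 180 (1.73). *JRG21* (AT3G55970), which encodes a JA oxidase, had no summit at its start but 288 and 82 in an intron at +1869 bp (2.77). *ST2A*, a sulfotransferase gene, had 103 and 23 at +213 bp (3.46), also just outside the limit. *CYP94C1* and *JMT* had none.

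Wound and ER body genes, which are classical outputs of the JA pathway, had the highest folds of the lists. Of 13 genes, 9 were targets (69.2%, 42.4 to 87.3), with a median fold of 4.94 and medians of 204 fragments after JA and 37.0 in control. *TSA1* (AT1G52410), an ER body gene, had 167 and 16 (7.87). *CLH1*, a chlorophyllase gene, had 330 and 37 (6.94, ratio 7.1, 5.04 to 10.3). The vegetative storage protein gene *VSP1* had 204 and 23 (6.80, ratio 7.06, 4.57 to 11.4), *CORI3*, a cystine lyase gene, had 103 and 12 (6.38), and the myrosinase-binding protein genes *MBP2* and *MBP1* had 266 and 42 (4.94) and 217 and 38 (4.45). The counting intervals of *CLH1* and *VSP1* lay wholly above that of *JAZ9* (1.88 to 2.75), whose JA fragments were more numerous. The folds of *VSP1* and *VSP2* and of *MBP1* and *MBP2* may share reads between similar copies.

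Glucosinolate genes, whose products are sulfur-rich defence compounds, were targets along most of their pathways. In the indole branch 9 of 13 genes were targets (69.2%), with a median fold of 3.80. *CYP83B1*, which directs the pathway to indole glucosinolates, had 194 and 29 (5.18), followed by *GGP1* (4.29, 166 and 30), *IGMT5* (4.1, 112 and 21), *SOT16* (4.08, 209 and 40), *UGT74B1* (3.80, 204 and 42) and *CYP79B2* (3.34, 91 and 21). The regulator gene *MYB34* had 2 summits inside the gene and none at its start, and *MYB51*, *MYB122* and *CYP81F2* had none. In the aliphatic branch 8 of 11 were targets (72.7%, 43.4 to 90.3), with a median fold of 3.63. The regulator gene *MYB76* had 78 and 9 (6.31), and the enzyme genes *SOT17* (5.45, 129 and 18), *BCAT4* (4.12, 185 and 35), *FMO GS-OX1* (3.96, 138 and 27), *CYP83A1* (3.31, 107 and 25) and *MAM1* (3.09, 57 and 14) followed. *MYB29*, *CYP79F1* and *CYP79F2* were no targets, and of these only *CYP79F1* had a summit further inside the gene.

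The supply of precursors was bound as well. Of 11 sulfate assimilation genes, 6 were targets (54.5%, 28.0 to 78.7). *APK1* (5.24, 183 and 27) and *APK2* (5.05, 151 and 23), which make the sulfate donor used in glucosinolate synthesis, led, followed by the glutathione synthesis genes *GSH2* (3.81) and *GSH1* (3.08), *APR1* (2.65) and *APS3* (1.85). Of 7 tryptophan synthesis genes, 5 were targets. *ASA1*, for the committed step, had 168 and 29 (4.49), and *PAT1* (*TRP1*) had 156 and 38 (3.21). *TSB2*, *TSB1* and *ASB1* had 2.45, 2.28 and 1.61.

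Other hormone and light pathways had lower shares. Anthocyanin and phenylpropanoid synthesis had 4 of 15 targets, *CHS* (3.34), *PAP1* (2.73), *DFR* (2.4) and *F3H* (2.07). Abscisic acid had 4 of 18, *ABI1* (3.11), *RD26* (2.48), *ANAC019* (2.42) and *ANAC055* (1.90). Gibberellin had 3 of 13, with *RGL3*, a DELLA gene, at 4.39, *GID1B* at 2.33 and *GAI* at 1.85. The circadian clock had 3 of 13, *RVE8* (2.57), *PRR9* (2.31) and *GI* (2.2), and light signalling 3 of 15, *PIF5* (2.46), *PIF4* (2.32) and *SPA1* (1.91). Auxin had 2 of 13, *IAA3* (2.46) and *SAUR15* (1.63). The ethylene list had 1 of 14, *EIN3* (2.31), and salicylic acid and immunity 1 of 13, *EDS5* (2.09). For the light, auxin, ethylene and salicylic acid lists the 95% interval of the share included the 7.30% of all genes.

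None of 16 photosynthesis genes was a target, with an interval of 0 to 19.4% that also includes 7.30%, and *LHCB6* had a summit further inside the gene. Ribosomal protein genes, taken by their product names, had 10 of 308 (3.25%, 1.77 to 5.87), led by AT1G74060 (6.30), AT2G47610 (4.31), AT5G25230 (3.44), AT3G57490 (3.04), AT1G53560 (2.72) and AT1G70600 (2.37).

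**Figure D3:**
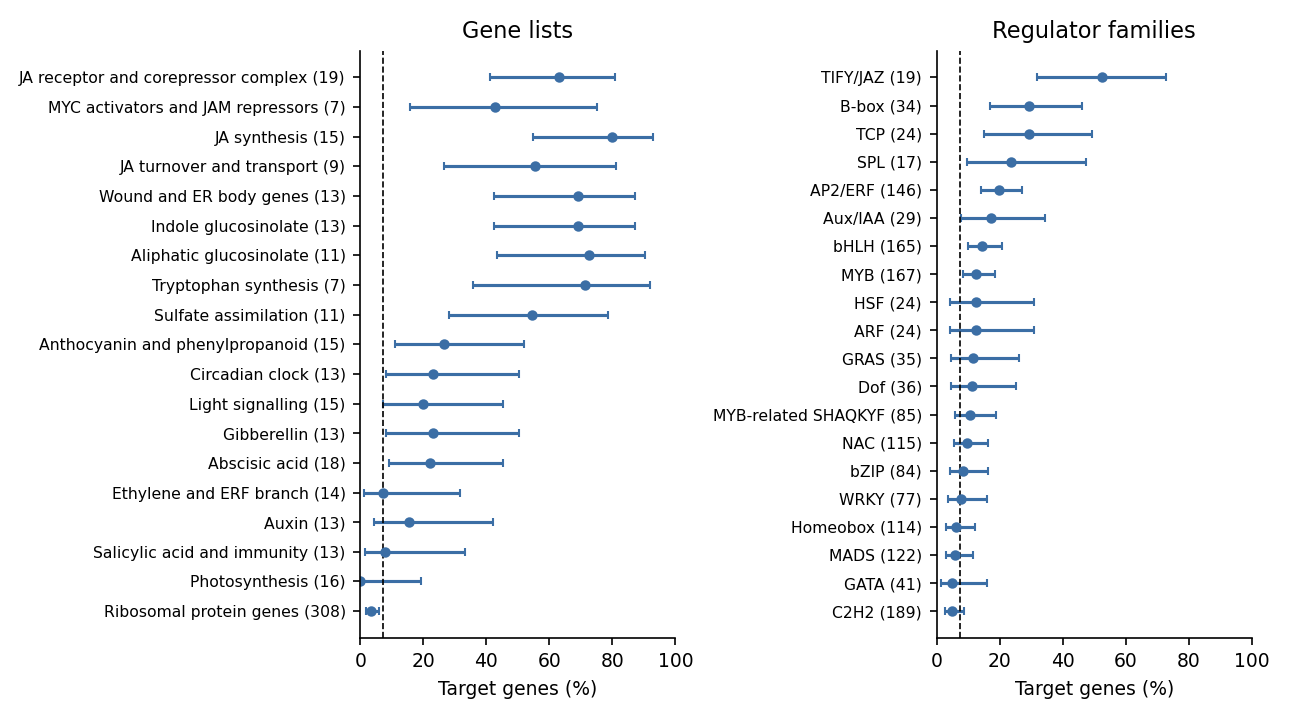
Share of genes that were MYC2 targets (horizontal, %) in each gene list (left) and regulator family (right), with the number of genes in brackets; points are shares, bars 95% Wilson intervals, and the dashed line is the 7.30% of all protein-coding genes. JA synthesis lies highest at 80.0% among the lists and TIFY/JAZ at 52.6% among the families, while photosynthesis lies at 0.

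Of 1541 genes in 20 families of transcriptional regulators, 182 were targets (11.8%, 10.3 to 13.5), against 1822 of 25903 other protein-coding genes (7.03%, 6.73 to 7.35). The TIFY/JAZ family had 10 of 19 (52.6%, 31.7 to 72.7), led by *JAZ8*, *JAZ10*, *JAZ13* and *JAZ1*. The B-box family, whose members act in light signalling and flowering, had 10 of 34 (29.4%, 16.8 to 46.2). *BBX9* (3.63, 236 fragments after JA and 51 in control), *BBX13* (3.14), *BBX30* (2.89) and *BBX29* (2.83) had the highest folds, and no G-box was found at the strongest summit of any of the 10. TCP factors, which control growth and cell division, had 7 of 24 (29.2%, 14.9 to 49.2), led by *TCP15* (3.79), AT5G23280 (3.15), *TCP10* (2.72) and *TCP14* (2.66). The SPL family had 4 of 17 (23.5%, 9.56 to 47.3), *SPL13B* (2.46), *SPL13A* (2.21), *SPL1* (2.11) and *SPL3* (2.06). *SPL13A* and *SPL13B* are near-identical copies, so their 266 and 268 fragments cannot be assigned with certainty.

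Among the large families, AP2/ERF had 29 targets of 146 (19.9%, 14.2 to 27.1), headed by AT5G21960 (3.58), AT2G22200 (3.48), AT2G44940 (3.11) and *ddf2* (3.05). bHLH had 24 of 165 (14.5%, 9.97 to 20.7), with AT1G12540 (3.36), AT4G25410 (3.31), AT4G38062 (3.3) and *JAM2* (AT1G01260, 3.06) highest. MYB had 21 of 167 (12.6%, 8.37 to 18.5), with *MYB76* (6.31), *TRFL4* (5.25), *MYB26* (3.48) and *MYB12* (2.87) highest. The intervals of these 3 families lay above 7.30%, and so did those of B-box, TCP, SPL, Aux/IAA and TIFY/JAZ. This is a description and no test. The intervals treat genes as independent, which genes with a shared summit or near-identical copies are not, and no allowance was made for the number of families.

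In 12 families the interval included 7.30%. They were WRKY with 6 of 77, led by *WRKY8* (3.56), *WRKY40* (3.19), *WRKY11* (2.97) and *ABO3* (2.57), NAC with 11 of 115 (*NAC2*, *ANAC087*, *NAC032* and *NAC025*, 3.66 to 3.01), the MYB-related SHAQKYF group with 9 of 85 (AT1G70000, AT1G68670, *RVE1* and *RVE8*, 3.54 to 2.57) and C2H2 with 9 of 189 (*ZF3*, *ZF2*, AT3G53600 and AT5G16470, 3.70 to 3.21). bZIP had 7 of 84 (*bZIP6*, AT2G31370, *BZIP61* and AT1G58110, 3.80 to 2.43), Homeobox 7 of 114 (*BLH6*, *HB22*, *HB6* and *PRHA*, 2.80 to 2.33) and MADS 7 of 122 (*AGL44*, *AGL20*, *SEP4* and *AGL101*, 3.50 to 2.65). The smaller families were GRAS with 4 of 35 (*RGL3*, *HAM3*, *SCL3* and *GAI*, 4.39 to 1.85), Dof with 4 of 36 (AT5G02460, AT1G69570, AT1G64620 and *DAG2*, 2.65 to 2.14), ARF with 3 of 24 (*ARF1*, *ARF6* and *ARF16*, 3.03 to 2.39), HSF with 3 of 24 (*HSF3*, *HSFB2A* and *HSFA1E*, 2.4 to 1.88) and GATA with 2 of 41 (*GATA7* and *GATA11*, 3.33 and 2.00). Aux/IAA had 5 of 29 (17.2%, 7.60 to 34.5), led by *IAA2* (3.39), *IAA16* (3.04), *IAA3* (*SHY2*, 2.46) and *IAA18* (2.45).

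The folds of regulator targets were not higher than those of all targets. The median highest fold of regulator targets was 2.44, against 2.59 for all targets, and when peaks were limited to a fold of at least 3 the share of targets was 2.60% among regulators (1.91 to 3.52), an interval that includes the 2.07% of all genes.

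A G-box was found within 50 bp of 947 of 3464 summits (27.3%, 25.9 to 28.8). In windows of the same 101 bp placed 500 bp to either side, the share was 1.53% and 1.76%, and in windows of this length centred 250 bp upstream of all protein-coding starts it was 1.54%. The T variant occurred at 20.2% of summits, against 2.89% and 3.38% in the flanks and 2.47% of all promoters. The A variant occurred at 24.2%, against 5.20% and 4.13% in the flanks and 4.49% of all promoters. Both strands were searched and overlapping matches were each counted, and any of the hexamers was present at 64.3% of summits, against 9.27% and 8.86% in the flanks and 8.18% of all promoters. The G-box lay close to the summit, at a median distance of 12.5 bp and within 10 bp in 41.0% of cases. A second G-box lay in the window at 103 summits.

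The share of summits with a G-box was higher at high levels and lower at high folds. In the quintile with the least control background, 9.52% of summits had a G-box (7.56 to 11.9), and in the quintile with the most, 51.1% (47.4 to 54.8). By fold, the order was turned round, with 37.7% (34.1 to 41.3) in the lowest quintile and 16.3% (13.7 to 19.2) in the highest. The T variant was more frequent at the upper end of both, with 15.6% (13.1 to 18.5) in the quintile with the least control background and 23.7% (20.7 to 27) in that with the most, and by fold 15.0% (12.5 to 17.9) in the lowest quintile and 29.7% (26.4 to 33.2) in the highest. The A variant was found at 19.9% and 26.6% of summits in the quintiles with the least and the most control background, and it stayed between 22.9% and 25.4% across the quintiles of fold. The flank shares of the G-box remained between 1.08% and 2.09% in all of these groups. Fold and control background are both parts of the same ratio, and weak peaks with few control fragments needed a higher fold to be listed, so these orders are not independent of each other.

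Peaks with a G-box had medians of 99.0 fragments after JA and 32.0 in control and a median fold of 2.42. Peaks with a T variant and no G-box had 88.0, 24.0 and 2.79, peaks with the A variant alone 79.0, 24.0 and 2.57, and peaks with none of them 59.0, 17.0 and 2.67. Among peaks with similar numbers of JA fragments, in the highest quintile of these, the 309 with a G-box had a median of 178 after JA, 60 in control and a fold of 2.36. The 112 with none of the hexamers had 178, 50.5 and 2.83. In the lowest quintile, the 63 with a G-box and the 440 with none differed little, with folds of 2.77 and 2.69. In the lists with at least 5 targets the counts were small. Among the strongest summits, T variants without a G-box and G-boxes numbered 5 and 2 of 9 in the wound and ER body list, 4 and 1 of 9 in the indole and 3 and 4 of 8 in the aliphatic glucosinolate list. They numbered 4 and 5 of 12 in JA synthesis and 2 and 5 of 12 in the receptor and corepressor list. Sulfate assimilation had 0 and 1 of 6, and tryptophan synthesis and JA turnover 0 and 1 of 5 each. The ribosomal protein list had 1 and 4 of 10. Over all targets, 20.6% had a T variant without a G-box and 27.4% a G-box.

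**Figure D4:**
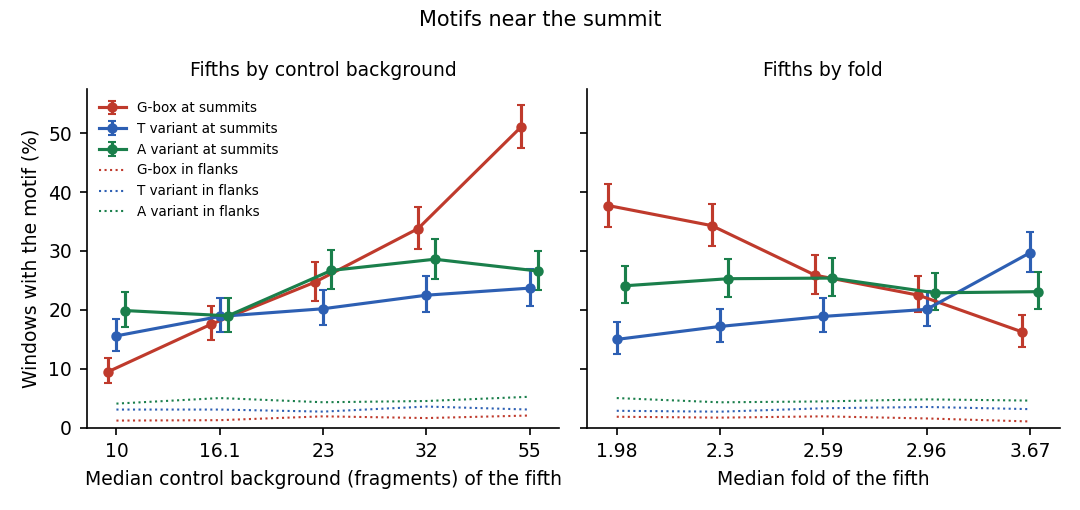
Share of 101 bp windows with each motif (vertical, %) in quintiles of peaks by control background (left, horizontal: median fragments of the quintile) and by fold (right, horizontal: median fold). Points with 95% Wilson bars are windows at summits, and dotted lines are the mean of windows 500 bp to either side. The G-box climbs to 51.1% with control background and is lowest, 16.3%, in the highest quintile of fold, where the T variant reaches 29.7%.

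Histone marks of untreated Col-0 seedlings were then set beside the summits, from domain lists called on pooled libraries against IgG. H3K9ac, a histone acetylation typical of active genes, covered 1309 summits (37.8%, 36.2 to 39.4) and 24.5% of bases. H3K4me3, also a mark of active starts, covered 14.1% of summits and 14.8% of bases. H3K36me3, which lies in transcribed gene bodies, covered 6.09% and 27.6%, and the repressive mark H3K27me3 16.3% and 19.7%. None of the 4 marks covered 1658 summits (47.9%, 46.2 to 49.5). Summits within H3K27me3 had a median fold of 2.83, with 68.0 fragments after JA and 18.5 in control, against 2.55, with 79.0 and 24.0, for summits outside it. In 5′ untranslated exons, 70.8% of summits lay in H3K9ac, against 35.5% of those in the 1000 bp upstream of starts.

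MYC2 target genes more often lay in regions where H3K9ac was higher after 2 h JA. These gains had been called in Col-0 seedlings, 3 merged libraries of 2 h JA against 3 merged ctrl libraries, in a large-scale and in a time course experiment, and were not used to make the MYC2 list. Both kinds of list nevertheless compare 2 h JA with no JA, and the series has no IgG or untagged library after JA. A rise of background after JA could enter both, which was not tested. In the large-scale experiment 715 of 2004 targets overlapped a gain (35.7%, 33.6 to 37.8), against 9.40% of genes that were no target and 11.3% of all genes. In the time course it was 42.4% of targets (40.3 to 44.6), against 16.5% of other genes and 18.4% of all. In both experiments it was 24.7% of targets, against 4.60% of other genes and 6.07% of all. Regions with lower H3K9ac after JA in the time course overlapped 17.6% of targets and 13.9% of other genes. These intervals cover the counting of genes, which are not independent samples.

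The difference held for genes with and without prior acetylation. Among genes in an untreated H3K9ac domain, 36.9% of targets and 12.9% of other genes were in a large-scale gain. Among genes in no such domain, it was 60 of 227 targets (26.4%, 21.1 to 32.5) and 111 of 7780 other genes (1.43%, 1.19 to 1.72). This split was chosen after seeing the data. Of the 75 genes with 2 summits, 45 were in a large-scale gain (60%, 48.7 to 70.3), against 34.7% of those with 1. Targets in the highest quartile of fold had 47.7% (43.4 to 52.1), while the other 3 quartiles had 31.3% to 31.9%. Targets whose strongest summit had a T variant without a G-box had 45.6%, those with a G-box 40%, with the A variant alone 31.7%, and with none 28.3% (25 to 31.8). In the time course the first of these classes did not stand above the next, with 45.4% for the T variant and 46.0% for the G-box, and the others had 40.4% and 38.8%.

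**Figure D5:**
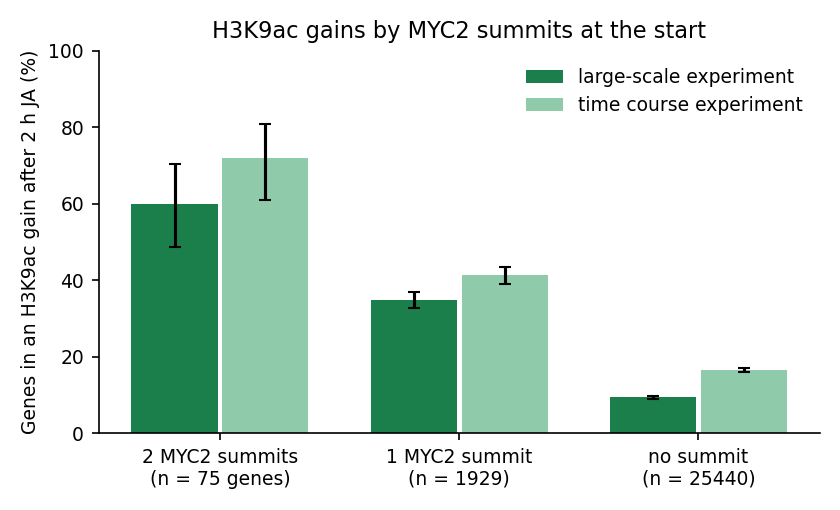
Share of protein-coding genes that overlap an H3K9ac gain after 2 h JA in Col-0 seedlings (vertical, %), for genes with 2 MYC2 summits, 1 or none near their start, in the large-scale (dark) and the time course (light) experiment; bars are shares and whiskers 95% Wilson intervals. Genes with 2 summits reach 60% and 72.0%, against 9.40% and 16.5% of genes with none.

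Among the 50 JA list genes, gains of the large-scale experiment were found mainly at targets. Of the 32 targets, 31 lay in a large-scale gain (96.9%, 84.3 to 99.4), against 5 of the 18 genes that were no target (27.8%, 12.5 to 50.9). The 31 included 11 of the 12 targets in the receptor list and all 12 targets in JA synthesis, of which *AOC1*, *AOC2* and *AOC3* share 1 domain. The gain at *JAZ8* held 340 reads after JA and 122 in ctrl (log2 fold 1.56 after scaling by the authors), that at *JAZ13* 211 and 52 (2.1) and that at *JAZ9* 2090 and 924 (1.25). *JAZ1*, with its 287 MYC2 fragments, had 3835 and 3131 (0.37). The 5 genes with a gain and no summit at the start were *JAZ12* (1112 and 990, 0.25), *DAD1*, *CYP94C1* (894 and 676, 0.48), *ST2A* and *JRG21* (898 and 244), of which *ST2A* and *JRG21* had a summit inside the gene. The other 13, with *COI1*, *JAZ4*, *JAZ11*, *MED25*, *HAC1*, *HDA6*, *MYC3* and *MYC4* among them, lay in no large-scale gain. The contrast was weaker in the time course. There *COI1*, *HDA6*, *MYC3*, *NIG1* and *JMT* lay in a gain, as did the 5 genes with a large-scale gain and no summit at the start. Of the targets, *TPL*, *LOX6*, *CYP94B3* and *GTR1* lay in no time course gain. In the wound and ER body list all 9 targets were in a large-scale gain, with the highest log2 fold at *MBP2* (608 and 113, 2.50). Of the 4 genes of this list that were no target, 3 were in such a gain too. These were *BGLU18* (log2 fold 1.47), *JR1* (0.910) and *PYK10* (0.307).

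MYC2 peaks were widest at some of the same genes. Of the 3464 peaks, 39 (1.13%) were wider than 1000 bp, and 7 of these covered a whole protein-coding gene. The widest spanned 5437 bp over *LOX2*, followed by 5334 bp over *BGLU18*, a beta-glucosidase gene of ER bodies, and 3518 bp over *JAZ9*. The others covered AT3G28220 (3305 bp), *VSP2* (2707 bp), *CLH1* (2488 bp) and *CYP83B1* (2302 bp). *BGLU18* thus had no summit within the limits of a target although a peak covered it from end to end. Of the 39 wide peaks, 34 (87.2%, 73.3 to 94.4) overlapped a large-scale gain, against 722 of 3425 other peaks (21.1%, 19.7 to 22.5). Wider peaks have more bases that can overlap, and the part of this in the difference was not tested.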

How the data were processed

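Reads were aligned by the authors to TAIR10 with Bowtie2 2.4.1. MYC2 peaks were called with MACS2 2.2.7.1 on 2 merged libraries. The deposited list gives, per peak, a fold (ratio), −log10 p, −log10 q and a score. H3K9ac and other domains were called by the authors with epic2 0.0.52 (listed as SICER in the submitters' notes) and deposited with read counts, log2 fold, p-value, FDR (all under 0.05) and score. deepTools 3.5.2 is also listed. The file of MYC2 peaks does not name its control, and the sample characteristics of all 4 MYC2 libraries name an H3K9ac antibody, Col-0 and no treatment. Antibody, line and treatment were therefore taken from the titles, the study's methods and its sample table.

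Whole fragment numbers were recovered from fold and −log10 p, with a tolerance of 0.001 on −log10 p. All 3464 peaks matched at the scale 0.7956. Over the 10000 scales tried on a sample of peaks with lower −log10 p, a median of 1.75% matched. At 44 peaks a second whole number was also within the tolerance. Fragments were 233 bp. The processed files give no depth per library, and depths listed elsewhere by the study were not used here. Positions and motifs used Python 3.11.15, numpy 2.4.6, scipy 1.17.1 and pandas 2.3.3, with matplotlib 3.10.9 for plots and protein-coding genes of the RefSeq annotation of the same sequence. Tested on simulated data, 500 summits and 500 motif windows gave 0 errors and 881 peaks gave 100% exact fragments.

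Shares carry 95% Wilson intervals (counting error only), and no test was run, since the list has no replicate values. Members, lists and families were chosen with earlier results of these data known. Named were the 10 highest folds, up to 6 targets per list and 4 per family by fold, JA and glucosinolate list genes that were no target, and the 10 genes with most summits. Alternatives varied distances, fold and q limits, motif windows and domain lists.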

Additional observations from a re-analysis of the deposited data

How the results depend on the processing

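No paired analysis was possible because the MYC2 peaks were called on merged libraries and carry no value per replicate, and for the same reason no library could be left out. Of 44 alternatives, 12 kept their value within its counting interval, or their count within 1.5 times, and 32 moved. The share of summits upstream of a start was 44.2% and became 30% with a reach of 500 bp and 60.9% with 2000 bp. The share of bases also changes with the reach and was not set beside these values. With a −log10 q of at least 10 the share of summits became 46.8%, with all annotated genes 48.8% and with the starts of every mRNA 48.2%. The 2004 targets fell to 568 with a fold of at least 3, 572 with the 1000 highest folds and 834 with a −log10 q of at least 10. The 75 genes with 2 summits became 4 with a reach of 500 bp, 263 with 2000 bp and 234 to the gene end. Regulators that were targets, 11.8%, became 8.89%, 16.0% and 14.9% under these 3 windows, while all genes had 5.27%, 9.81% and 9.07%, and 2.60% with a fold of at least 3 or with the 1000 highest folds, where all genes had 2.07% and 2.08%. JA list genes that were targets, 64.0%, became 48.0% with 500 bp and 54.0% with a −log10 q of at least 10. Under that q limit all genes had 3.04%. With a fold of at least 3 or with the 1000 highest folds, 14.0% of the JA list genes were targets. The G-box share, 27.3%, became 20.4% and 32.9% with windows of 25 and 100 bp to either side, 44.9% with the T variant added, 48.7% with the A variant, 64.3% with both, 17.5% with a fold of at least 3, 17.8% with the 1000 highest folds and 33.1% with a −log10 q of at least 10. Targets in an H3K9ac gain, 35.7%, became 33.3% over gene bodies (other genes 8.39%) and 11.4% with gains of log2 fold at least 0.5 (other genes 1.1%). They became 42.4% in the time course and 24.7% in both experiments. Summits in untreated H3K9ac, 37.8%, became 49.0% with any base of the peak, 25.2% where domains had to reach a log2 fold of 1 against IgG and 32.2% with the list of PHILO replicate 1. Causes of these shifts, beyond the changed windows and limits themselves, were not tested. The recovery of fragments and the split of genes by untreated H3K9ac were added after seeing the data.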

Other observations

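Summits were crowded in a few regions, found by counting them in stretches of 20000 bp, which hold 0.581 summits on average. The densest, at chr1:20158230-20178042, had 13 summits over AT1G54010, AT1G54020, *MVP1* and *ESP*, which include GDSL lipase genes and a modifier of glucosinolate breakdown, and none of the 13 had a G-box. Next was chr1:6444479-6463660, with 12 summits and 3 G-boxes around *MYB47*, AT1G18720 and *PnsB4*. The region chr2:9675144-9688761 had 10 summits over the neighbouring bHLH genes AT2G22760 and *NAI1*, the regulator gene of ER bodies. At chr4:18519605-18539110, *APK2* (*AKN2*) and *CYP79B2*, genes of sulfate assimilation and of indole glucosinolates, lay beside each other under 10 summits with a median fold of 3.24, and 8 of the 10 lay in a large-scale H3K9ac gain. These regions were picked out by their counts and received no test.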
